A study of Mus musculus with 12 samples.

Results

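The glycolytic enzymes described here are 10 genes that encode 7 steps of the path from glucose to lactate: the hexokinases Hk1 and Hk2, the phosphofructokinases Pfkl and Pfkp, aldolase A (Aldoa), phosphoglycerate kinase (Pgk1), enolase (Eno1), pyruvate kinase (Pkm) and the lactate dehydrogenases Ldha and Ldhb. They were taken by symbol from a table of 21253 mouse genes, and all 10 were found and had values in all 12 libraries. RNA-seq of polyadenylated RNA covered mouse embryonic stem cells (mESC) and the anterior neural progenitors (AntNPC) made from them, in a WT line, which is E14, and in a line labelled EED-/-. There were 2 libraries each of WT mESC and EED-/- mESC and 4 each of WT AntNPC and EED-/- AntNPC. Both lines were kept as mESC on gelatin in medium with 15% serum and LIF. For AntNPC they were held 5 days in serum-free N2B27 medium, with 10 ng/ml bFGF for the first 3 days and, from day 2 on, 5 uM of the WNT inhibitor Xav939. The EED protein belongs to the core of PRC2, a histone methyltransferase that marks silent genes. Each genotype stands on 1 line, and the sources used here do not give the EED-/- allele.

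Glycolysis splits glucose into pyruvate in the cytosol and yields ATP without oxygen. Hexokinase traps glucose in the cell as its phosphate, phosphofructokinase makes the committed step, and lactate dehydrogenase turns pyruvate into lactate to regenerate NAD. Several steps have isozymes from separate genes with different kinetics and tissue distribution, and pluripotent stem cells are known for a high glycolytic rate. Hypoxia-inducible factors and MYC are known activators of many of these genes through DNA elements that hold ACGTG and CACGTG.

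Upstream sequences are shown for the members that changed with genotype in AntNPC, Hk2, Pfkp and Ldhb, and for Ldha, which did not pass the test, so that the short elements in them can be read beside the values. Each is the 250 bases before a RefSeq start on GRCm38.p6, written along the gene's own strand, with ACGTG, its extension CACGTG and GCGTG in capitals on either strand (CACGT and CACGC are their reverse complements). The windows are Hk2 at chr6:82774455-82774704 (minus strand), Pfkp at chr13:6648772-6649021 (minus), Ldhb at chr6:142507958-142508207 (minus) and Ldha at chr7:46845554-46845803 (plus).
Hk2: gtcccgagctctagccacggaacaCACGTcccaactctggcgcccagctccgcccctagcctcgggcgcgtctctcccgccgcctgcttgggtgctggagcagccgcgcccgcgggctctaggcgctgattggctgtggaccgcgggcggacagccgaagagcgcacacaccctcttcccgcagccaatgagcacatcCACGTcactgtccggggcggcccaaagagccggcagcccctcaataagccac
Pfkp: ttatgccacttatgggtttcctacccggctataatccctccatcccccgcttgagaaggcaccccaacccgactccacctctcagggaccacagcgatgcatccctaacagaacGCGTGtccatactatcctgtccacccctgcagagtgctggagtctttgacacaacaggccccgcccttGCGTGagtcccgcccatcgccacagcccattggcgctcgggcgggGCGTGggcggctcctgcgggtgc
Ldhb: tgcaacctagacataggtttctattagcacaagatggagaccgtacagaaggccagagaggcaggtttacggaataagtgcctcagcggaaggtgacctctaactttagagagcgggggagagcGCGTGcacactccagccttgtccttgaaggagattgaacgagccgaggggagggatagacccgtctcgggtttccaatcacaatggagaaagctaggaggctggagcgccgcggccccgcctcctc
Ldha: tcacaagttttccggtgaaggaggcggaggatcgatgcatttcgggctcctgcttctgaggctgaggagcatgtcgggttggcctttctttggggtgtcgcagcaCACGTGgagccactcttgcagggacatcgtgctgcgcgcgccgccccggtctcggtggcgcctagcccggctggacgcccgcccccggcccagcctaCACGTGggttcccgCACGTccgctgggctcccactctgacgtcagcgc
The Hk2 window held ACGTG 2 times and the Pfkp window GCGTG 3 times. The Ldhb window held GCGTG 1 time, and the Ldha window held CACGTG 2 times and 1 further ACGTG. RefSeq gave 17 such windows for the 10 members and 32851 for all genes. ACGTG stood in 6 of the 17 member windows, which belong to Aldoa, Hk2, Ldha, Pgk1 and Pkm, and in 16.6% of all windows. GCGTG stood in 8 of the 17, which belong to Eno1, Hk1, Ldha, Ldhb, Pfkl and Pfkp, and in 28.2% of all. Ldha thus holds GCGTG in a RefSeq window other than the printed one. CACGTG was in 1 of the 17, that of Ldha, and in 6.02% of all windows. Either ACGTG or GCGTG was in 14 of the 17 member windows, against 38.6% of all. Windows of the same gene can overlap, and a shared match was counted in each. The Aldoa windows that start at 126799179 and 126799255 share their ACGTG. The Eno1 windows that start at 150236947 and 150236974 share their GCGTG matches. The 4 printed windows ran from 56.4% to 69.6% GC against a median of 52.4% over all windows, and ACGTG and GCGTG each hold a CG pair. A match describes these letters and no binding was measured.

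The values are FPKM, which correct fragment numbers for transcript length and sequencing amount, so levels of different genes can be set side by side. They keep no read depth. Summed FPKM ran from 453550 to 864235 per library, the 10 members held 0.513% to 1.16% of it, and replicate 1 of WT AntNPC had Gapdh listed at 0. Eed itself (chromosome 7) was 66.2 and 163 FPKM in the WT mESC pair and 644 and 376 in the pair labelled EED-/-. In WT AntNPC it was 42.0, 54.7, 63.4 and 61.7 FPKM against 182, 171, 202 and 186 in AntNPC labelled EED-/-. Eed RNA was thus higher with the EED-/- label. RNA does not show whether the protein was present, and the allele is not given. The values therefore do not check the genotype, and directions below rest on what the labels say. The 10 neural progenitor markers all had a mean of at least 1 FPKM in both AntNPC groups, and the 10 pluripotency markers summed to 3019 to 10112 FPKM in WT mESC and to 36.1 to 69.0 in WT AntNPC. In AntNPC labelled EED-/- the pluripotency sum was 276 to 379 FPKM, and 10 of those 10 markers rose (limma). Trophoblast markers rose there in 7 of 7 tested, endoderm markers in 7 of 8 and mesoderm and fibroblast markers in 6 of 8, none of these markers being at 0 in every library of either AntNPC group. Of the 10 neural progenitor markers 2 rose and 3 fell there. In mESC labelled EED-/- the trophoblast sum was 854 to 2263 FPKM against 25.9 to 31.7 in WT mESC, and 6 of 7 trophoblast markers rose, with 6 of 8 of endoderm and 4 of 8 of mesoderm and fibroblasts. The part of these markers' RNA in the differences between the lines below was not tested in either cell type. In bulk RNA, fewer cells of a type and less RNA per cell cannot be told apart.

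A set of 4 libraries stood apart from the rest. Pgk1-rs7, a processed pseudogene of Pgk1 on chromosome 12, was at 72.2 FPKM in WT mESC replicate 1, 66.4 in EED-/- mESC replicate 2, 34.4 in WT AntNPC replicate 1 and 86.5 in EED-/- AntNPC replicate 1. In the other 8 libraries it was 1.58 to 3.96 FPKM. Replicate 1 of WT AntNPC correlated with the other 3 at 0.963 to 0.964 across genes and those 3 with each other at 0.996 to 0.997. The pair of WT mESC libraries correlated at 0.890 and the pair labelled EED-/- at 0.916. Values of the 10 members are therefore given by library below.

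Lower levels after differentiation were the main change of the glycolytic genes. From WT mESC to WT AntNPC, 5 of the 10 members fell (Hk1, Hk2, Pfkp, Aldoa and Ldhb) and 0 rose (limma, adjusted p under 0.05), beside 18.1% of all 13678 tested genes that fell and 30.1% that rose. The median log2 fold change was -1.16 over the members and 0.17 over all tested genes. From mESC to AntNPC labelled EED-/-, 4 fell (Hk1, Hk2, Pfkp and Ldhb) and 0 rose, beside 16.7% and 14.4% of all genes, with medians of -0.74 and -0.01. Of the 10 members, 8 had every WT AntNPC library below every WT mESC library, as had 22.3% of all genes. In the cells labelled EED-/- 6 did, as had 27.7%. Without WT mESC replicate 1 the count of members that fell in WT was 8, and without EED-/- mESC replicate 1 the count with the EED-/- label was 2.

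Between the lines fewer members passed. In AntNPC 3 were higher with the EED-/- label (Hk2, Pfkp and Ldhb) and 0 lower, beside 18.3% and 7.75% of all genes, and the medians were 0.03 over the members and 0.05 over all genes. In mESC 1 was lower (Ldhb) and 0 higher, beside 2.73% and 20% of all genes, and the medians were -0.42 and 0.29. The change with differentiation differed between the lines for 1 member, Ldhb, which was on the higher side, beside 3.98% of all genes on that side and 11.3% on the other. Without adjustment the only addition to the sides counted at 0 was Pfkl, lower in AntNPC (limma, unadjusted p = 0.0469 in a fit across all genes). Every AntNPC library labelled EED-/- lay above every WT one for 4 members, as for 30.4% of all genes, and below for 0, as for 19.1%. In mESC 5 members lay below without overlap, as did 6.91% of all genes, and 0 above, as did 33.2%. Without WT AntNPC replicate 2, 3 or 4 only Hk2 was called in AntNPC. With 10 members, 3 calls beside 18.3% are no result about glycolytic genes as a group.

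Rescaling moves the medians over all genes. Medians over the members were not computed after rescaling, so those given above stand beside unrescaled ones only. Single members moved too, as Ldha in mESC from -0.14 to 0.23 after quantile normalization. Quantile normalization brought the median of all genes in mESC from 0.29 to -0.05, and in AntNPC from 0.05 to -0.06. Scaling FPKM to an equal sum in every library brought the median of all genes from 0.17 to 0.38 for WT differentiation and from -0.01 to 0.21 for the cells labelled EED-/-. Over all genes, the split of higher against lower calls in AntNPC was 2507 to 1060, and 1945 to 1945 after quantile normalization. In mESC it was 2732 to 373, and 1216 to 1113. For the interaction it was 545 to 1541, and 733 to 841.

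**Figure D1:**
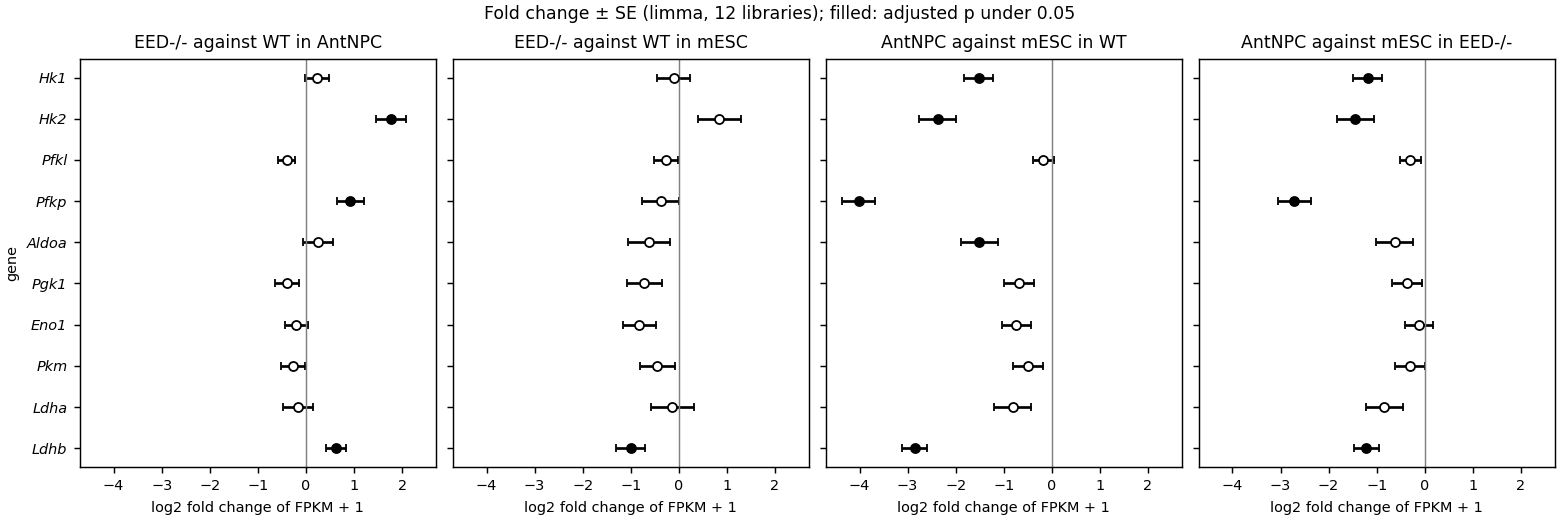
Log2 fold change of FPKM + 1 (horizontal axis) of the 10 members in 4 comparisons, with bars of 1 SE from limma over 12 libraries and filled points for an adjusted p under 0.05. The 5 filled points of WT differentiation and the 4 of EED-/- differentiation lie left of 0, and the 3 filled points of AntNPC lie right of it.

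Hk2, the hexokinase typical of muscle, embryonic and tumour cells, showed the largest difference between the lines in AntNPC among the members. Its FPKM in WT AntNPC was 12.9, 8.43, 10.4 and 9.37 in replicates 1 to 4, and 57.9, 29.9, 36.1 and 30.4 in AntNPC labelled EED-/-. The groups did not overlap, and replicate 1 was the highest of each. Hk2 rose by 1.77 ± 0.32 (SE) on the log2 scale (limma, adjusted p = 0.00157), and the call held in 22 of 22 alternative settings, the adjusted p ranging from 6.01e-05 to 0.00897. In mESC it was 38.5 and 84.1 FPKM in WT against 154 and 68.4 with the EED-/- label, so the groups overlapped (0.84 ± 0.45, adjusted p = 0.221). Among libraries with high Pgk1-rs7 this sets 38.5 against 68.4 FPKM, and among the others 84.1 against 154. Without WT mESC replicate 2 the difference was 1.39 (limma, adjusted p = 0.0443), and without EED-/- mESC replicate 1 it was 0.26, the lowest of the leave-outs.

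Differentiation brought Hk2 down in both lines. It fell by 2.38 on the log2 scale in WT (SE 0.39, limma adjusted p = 0.000454) and by 1.44 with the EED-/- label (SE 0.39, 0.0163). The latter call was lost without EED-/- mESC replicate 1, where the change was -0.86 (adjusted p = 0.225), and with a replicate block (0.0847). The difference between these changes did not pass (0.94 ± 0.55, adjusted p = 0.315). By group mean the order was 111 FPKM in EED-/- mESC, 61.3 in WT mESC, 38.6 in EED-/- AntNPC and 10.3 in WT AntNPC, and all neighbours in this order overlapped except the AntNPC groups.

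Hk2 lies on chromosome 6 (82725025 to 82774454, GRCm38), as does Ldhb (142490249 to 142507957). Genes of chromosome 6 were higher as a whole with the EED-/- label: their median was shifted by 0.63 on the log2 scale in AntNPC and by 0.61 in mESC against the autosomes other than 3, 6 and 8, over genes with a mean above 5 FPKM. The other chromosomes that carry members were shifted by -0.06 to 0.04. Of the 668 tested chromosome 6 genes 43.9% rose in AntNPC and 43.6% in mESC. Hk2 at 1.77 lay above this shift and Ldhb at 0.63 was close to it, while Ldhb in mESC lay on the other side of 0. The part of the chromosome in these differences was not tested.

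Hk1, the hexokinase of most adult tissues and of brain, differed little in AntNPC. It was 13 to 13.4 FPKM in WT and 14.0, 14.9, 16.4 and 17.4 with the EED-/- label, without overlap. The difference of 0.23 ± 0.25 did not pass over the 12 libraries (limma, adjusted p = 0.587), and it passed in a fit of the 8 AntNPC libraries alone (adjusted p = 0.033). In mESC the WT libraries lay far apart, 66.6 and 23.8 FPKM, with 41.7 and 32.7 between them. Hk1 fell with differentiation in both lines, by 1.53 (SE 0.30, adjusted p = 0.00167) in WT and by 1.19 (SE 0.30, 0.0124) with the EED-/- label. The WT drop was -0.80 without WT mESC replicate 1 and -2.25 without WT mESC replicate 2. Without WT mESC replicate 1 its difference between the lines in mESC was 0.61 (adjusted p = 0.0262), and without WT mESC replicate 2 it was -0.83 (0.0055), so 1 library decided the direction. The difference in its change with differentiation was 0.34 ± 0.43 (0.702), 1.06 (0.00437) without WT mESC replicate 2 and -0.39 (0.198) without WT mESC replicate 1. The drop with the EED-/- label did not pass without EED-/- mESC replicate 1 (adjusted p = 0.114) or with FPKM scaled to equal sums (0.177).

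Pfkp, the platelet-type phosphofructokinase, had the largest drop with differentiation among the members. It went from 142 and 165 FPKM in WT mESC to 7.44, 9.01, 8.48 and 9.16 in WT AntNPC, and fell by 4.02 on the log2 scale (SE 0.34, limma adjusted p = 3.83e-06). With the EED-/- label it went from 118 and 116 FPKM to 36.0, 13.3, 14.0 and 12.3, and fell by 2.71 (SE 0.34, 0.000154). Both drops passed in 20 of 20 alternatives. In AntNPC it rose with the EED-/- label by 0.92 ± 0.28 (adjusted p = 0.03), without overlap between the groups. Replicate 1 of the EED-/- group stood far above the other 3, and the change without it was 0.58. Against its WT counterpart replicate 1 was 4.83 times as high, and replicates 2 to 4 were 1.49 times as high. The call held in 16 of 22 alternatives. It was lost with a replicate block (adjusted p = 0.0741), with FPKM scaled to equal sums (0.0829) and without any 1 of the 4 WT AntNPC libraries (0.058 to 0.0743). Block fits chosen after seeing the data kept it: with mESC numbers crossed (limma, adjusted p = 0.048) and in the 8 AntNPC libraries alone (0.0383). In mESC both libraries labelled EED-/- lay below both WT ones, and the difference of -0.38 ± 0.39 did not pass (adjusted p = 0.566). The difference in the change with differentiation was 1.31 ± 0.48 (adjusted p = 0.0973), and 0.96 (0.0113) without EED-/- AntNPC replicate 1. By mean the order was WT mESC at 153 FPKM, EED-/- mESC at 117, EED-/- AntNPC at 18.9 and WT AntNPC at 8.52, and no neighbouring groups overlapped.

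Pfkl, the liver-type phosphofructokinase, was nearly level across the groups other than EED-/- AntNPC. It was 114 and 128 FPKM in WT mESC, 101 and 98.7 in EED-/- mESC and 113, 109, 103 and 102 in WT AntNPC. In AntNPC labelled EED-/- it was 121, 72.7, 76.6 and 62.6 FPKM, so replicate 1 lay above and replicates 2 to 4 below all WT libraries. The difference there was -0.40 ± 0.18 (limma, adjusted p = 0.133). Without EED-/- AntNPC replicate 1 it was -0.59 (adjusted p = 0.00534). With differentiation neither line passed (-0.18 ± 0.22 in WT, adjusted p = 0.539, and -0.30 ± 0.22, 0.31). Without EED-/- AntNPC replicate 1 the latter was -0.50 (0.0288). The WT value changed sign to 0.08 after quantile normalization and to 0.10 with equal sums.

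**Figure D2:**
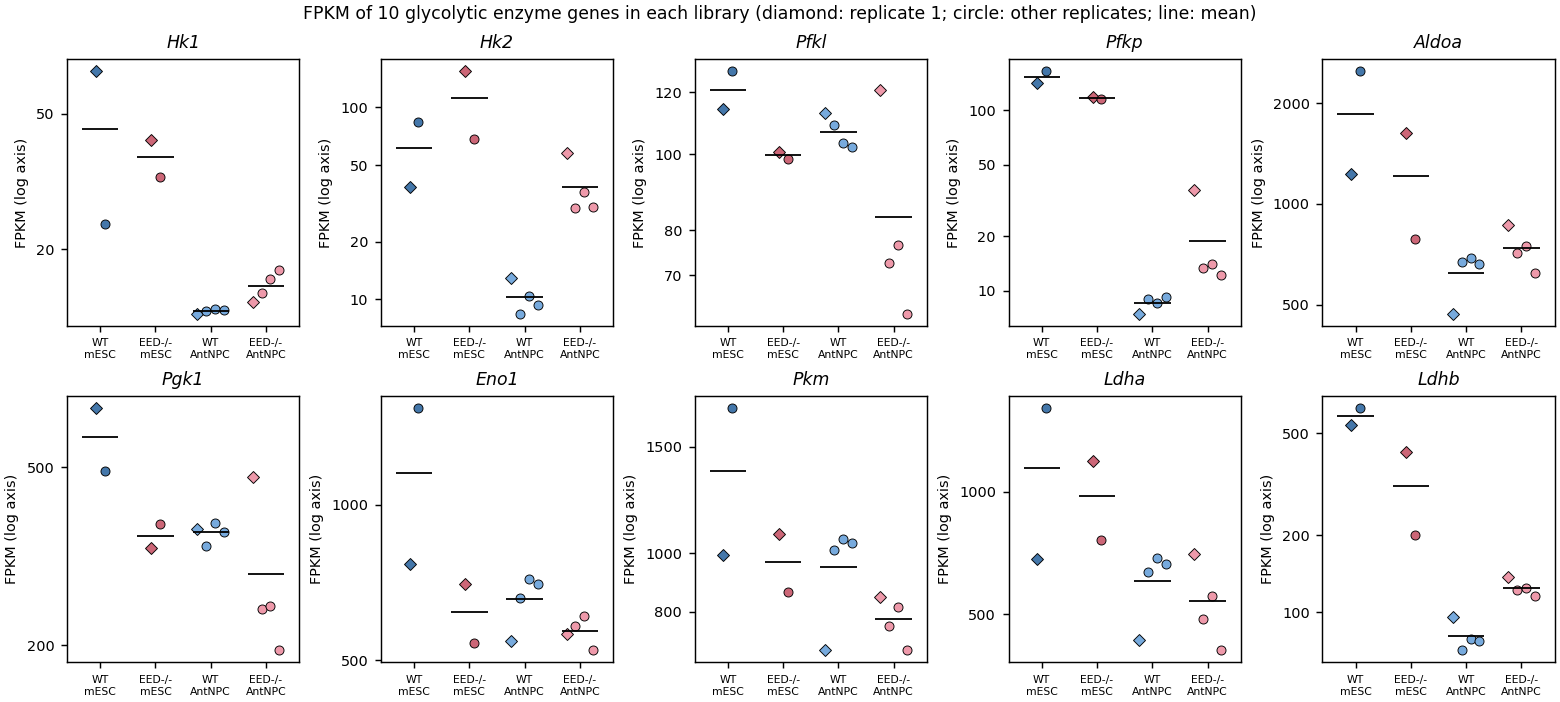
FPKM (log axis, own scale in each panel) of the 10 members in each library of the 4 groups, with diamonds for replicate 1, circles for the other replicates and lines for group means. Hk2, Pfkp and Ldhb have all 4 AntNPC libraries labelled EED-/- above the 4 WT ones, and in Pfkp, Pfkl and Pgk1 replicate 1 of that group lies far above the other 3.

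Aldoa, Eno1, Pkm and Ldha were the most abundant members, with group means from 539 FPKM for Ldha in EED-/- AntNPC to 1861 for Aldoa in WT mESC. Aldoa, which cleaves fructose bisphosphate into trioses, was 1233 and 2489 FPKM in WT mESC and 471, 673, 689 and 660 in WT AntNPC. It fell by 1.51 (SE 0.38, limma adjusted p = 0.00709), and this was lost without WT mESC replicate 2 (-1, 0.0672) and with a replicate block (0.052). In EED-/- mESC it was 1633 and 784 FPKM and in EED-/- AntNPC 866, 716, 750 and 621, which overlapped (-0.63 ± 0.38, adjusted p = 0.23, with -1.15, 0.0454, without EED-/- mESC replicate 2 and -0.10 without EED-/- mESC replicate 1). Between the lines it did not pass in AntNPC (0.25 ± 0.31, 0.638) or in mESC (-0.63 ± 0.44, 0.364).

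Eno1, which makes phosphoenolpyruvate, was 768 and 1541 FPKM in WT mESC against 702 and 539 in EED-/- mESC, without overlap. The difference of -0.82 ± 0.34 did not pass (limma, adjusted p = 0.115). It was -0.32 without WT mESC replicate 2. It passed without WT mESC replicate 1 (-1.32, 0.00668), with a term for the 4 libraries of high Pgk1-rs7 (0.0249) and with FPKM scaled to equal sums (0.0111). In AntNPC it was 546, 659, 720 and 701 FPKM in WT and 561, 582, 608 and 523 with the EED-/- label (-0.20 ± 0.24, 0.626). With differentiation it was -0.74 ± 0.30 in WT (adjusted p = 0.0601) and -0.12 ± 0.30 with the EED-/- label (0.785), the latter changing sign to 0.24 and 0.15 under the 2 rescalings. The WT value was -0.23 without WT mESC replicate 2. It passed without WT mESC replicate 1 (-1.24, 0.00245) and, barely, without either EED-/- mESC library (0.0485 and 0.0491). The interaction was 0.62 ± 0.42 (0.395), 1.12 (0.0358) without WT mESC replicate 1 and 0.12 without WT mESC replicate 2.

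Pkm encodes the pyruvate kinases of muscle and embryonic type by alternative splicing, which the gene totals do not separate. It was 994 and 1740 FPKM in WT mESC, 1074 and 862 in EED-/- mESC, 691, 1013, 1055 and 1040 in WT AntNPC, and 845, 759, 815 and 691 in EED-/- AntNPC. None of its comparisons passed, the largest being -0.49 ± 0.31 for WT differentiation (limma, adjusted p = 0.222), which was -0.89 (0.0344) without WT mESC replicate 1 and -0.09 without WT mESC replicate 2. In AntNPC the difference was -0.27 ± 0.26 (0.518), with replicates 2 to 4 of the EED-/- group below those of WT and replicate 1 above its WT counterpart. Its regulators did not pass between the lines: of 7 splicing factors 0 passed in either direction in AntNPC or mESC (limma). With WT differentiation 3 of the 7 rose, among them Ptbp2, the neural polypyrimidine tract protein, from 11 ± 6.99 (SD, n = 2) to 94.1 ± 19.9 FPKM (SD, n = 4).

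Pgk1, the X-linked phosphoglycerate kinase, was 680 and 490 FPKM in WT mESC and 329 and 373 in EED-/- mESC, without overlap (-0.72 ± 0.36, limma adjusted p = 0.195). In AntNPC it was 364, 333, 375 and 359 FPKM in WT and 477, 241, 245 and 195 with the EED-/- label (-0.39 ± 0.26, adjusted p = 0.322). Without EED-/- AntNPC replicate 1 the difference was -0.66 (0.022). With WT differentiation it was -0.69 ± 0.31 (0.0921), and 0.0184 was the adjusted p without that library. That same library had the highest Pgk1-rs7, 86.5 FPKM against 1.95 to 3.16 in the other 3 of its group. In the remaining high libraries Pgk1 was 680, 373 and 364 FPKM. The copy shares sequence with Pgk1, so how the authors' quantification divided reads between them is uncertain, and its part in the Pgk1 value was not tested. Eno1b, a processed and protein-coding copy of Eno1, showed the same kind of split in AntNPC: 206 FPKM in WT replicate 1 against 111 to 118 in the other 3, and 220 against 82.3 to 92.6 with the EED-/- label. Within WT AntNPC, Eno1 itself was lowest in replicate 1, at 546 FPKM. In AntNPC labelled EED-/- its replicate 1, at 561 FPKM, lay inside the range of the group, 523 to 608. The aldolase copies Aldoart1 and Aldoart2 were under 1 FPKM in every library.

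**Figure D3:**
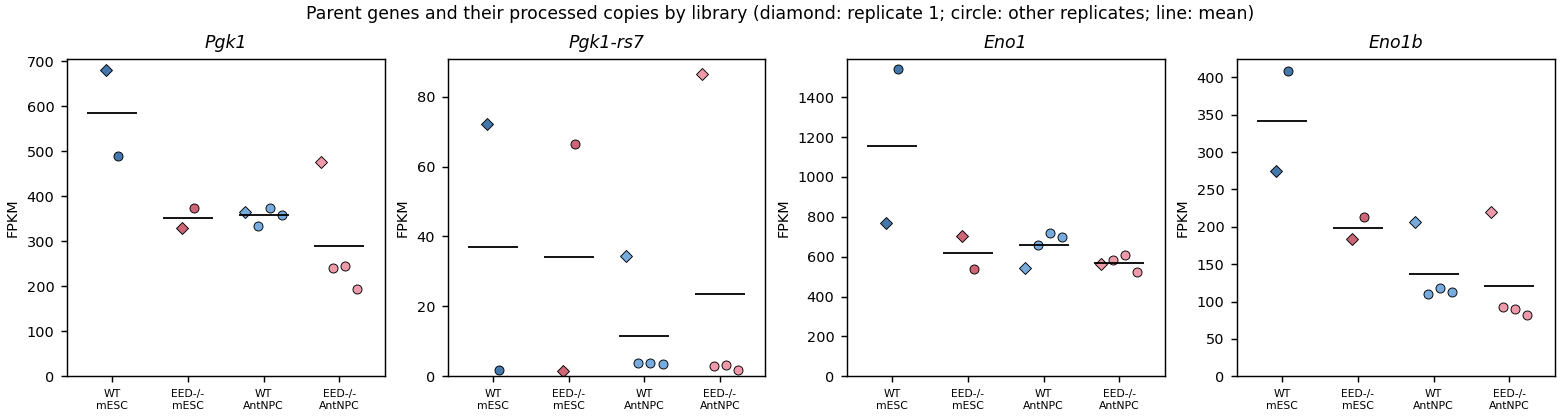
FPKM of Pgk1, its pseudogene Pgk1-rs7, Eno1 and its copy Eno1b in each library, with diamonds for replicate 1, circles for the others and lines for group means. Pgk1-rs7 is at 34.4 to 86.5 in 4 libraries and under 4 in the other 8, and Eno1b in AntNPC is at 206 and 220 in the replicate 1 libraries.

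Ldhb, the heart-type lactate dehydrogenase, was the member whose response to differentiation differed between the lines. It was 541 and 629 FPKM in WT mESC and 423 and 200 in EED-/- mESC. In WT AntNPC it was 95.4, 71.0, 78.7 and 77 FPKM, and 137, 122, 125 and 116 in AntNPC labelled EED-/-. The line labelled EED-/- was thus lower in mESC and higher in AntNPC, without overlap in either. In WT it fell by 2.85 on the log2 scale (SE 0.26, limma adjusted p = 6.09e-06) and with the EED-/- label by 1.22 (SE 0.26, 0.00442). The latter was -0.68 without EED-/- mESC replicate 1 and -1.76 without EED-/- mESC replicate 2. The difference of these changes was 1.63 ± 0.36 (adjusted p = 0.0119), and it passed in 20 of 20 alternatives with values from 1.09 to 2.17. The order of the means was 585 FPKM in WT mESC, 311 in EED-/- mESC, 125 in EED-/- AntNPC and 80.5 in WT AntNPC, with no overlap between neighbours.

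The separate calls for Ldhb were weaker than the interaction. In AntNPC it rose by 0.63 ± 0.21 (limma, adjusted p = 0.0464), which passed in 11 of 22 alternatives. The call was lost among others with a replicate block (0.0901), with AntNPC replicates 2 to 4 beside all mESC libraries (0.67, 0.0999) and without WT replicate 2, 3 or 4 or any 1 EED-/- AntNPC library (0.0812 to 0.128), while the change stayed between 0.57 and 0.71. In fits of the 8 AntNPC libraries alone it passed, the adjusted p being 0.000388 with a replicate block. In mESC it fell by 1.00 (SE 0.30, adjusted p = 0.0318), which passed in 12 of 21. Without EED-/- mESC replicate 2, at 200 FPKM the lowest, the change was -0.46 (0.171), and without EED-/- mESC replicate 1 it was -1.54. It was -0.89 (0.0734) without WT mESC replicate 2, and the adjusted p was 0.738 for the 4 mESC libraries alone and 0.073 with a replicate block. Leaving out WT AntNPC replicate 3 or 4 or EED-/- AntNPC replicate 2 or 3, which changes only the shared spread, gave 0.0512 to 0.0521.

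Ldha, the muscle-type form that favours lactate production, did not pass in any comparison. It was 684 and 1604 FPKM in WT mESC, 1187 and 761 in EED-/- mESC, 434, 635, 686 and 665 in WT AntNPC and 703, 488, 555 and 409 in EED-/- AntNPC. The groups of the 2 lines overlapped in both cell types (AntNPC -0.17 ± 0.31, limma adjusted p = 0.767, and mESC -0.14 ± 0.44, 0.88), and quantile normalization changed these to 0.06 and 0.23. With differentiation it was -0.81 ± 0.38 in WT (0.103) and -0.85 ± 0.38 with the EED-/- label (0.116). Without WT mESC replicate 1 these were -1.43 (0.00876) and -0.85 (0.0395). Without WT mESC replicate 2 the former was -0.20 and the latter had an adjusted p of 0.0388. The latter ran from -1.17 to -0.53 over all leave-outs. The 95% interval of the difference between the lines in AntNPC ran from -0.86 to 0.52.

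Ratios of isozymes within a library do not depend on its scaling. They do keep a shift of 1 chromosome against another. Hk2 and Ldhb lie on chromosome 6, shifted by 0.63 in AntNPC, and Hk1 and Ldha do not. The part of that shift in these 2 ratios was not tested. Hk2 made up 49.9%, 38.9%, 43.7% and 41.4% of the summed Hk1 and Hk2 FPKM in WT AntNPC and 80.5%, 66.8%, 68.7% and 63.6% in AntNPC labelled EED-/-. The log2 ratio was higher by 1.63 (exact two-sided permutation test, p = 0.0286, the smallest that 4 against 4 allows, 0.0429 adjusted over 3 ratios). All 4 libraries labelled EED-/- were above all 4 WT ones. The Pfkp ratio below reached the same smallest p, and the adjusted value of each rests on both doing so. With the replicate numbers taken as pairs, the exact p of the Hk2 and Pfkp ratios was 0.125, the smallest that 4 pairs allow. Neither thus passed. In mESC the Hk2 share was 36.7% and 77.9% in WT and 78.7% and 67.6% with the EED-/- label, which overlapped.

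Pfkp held 55.4% and 56.3% of the phosphofructokinase pair's FPKM in WT mESC and 54.1% and 53.9% in EED-/- mESC, the tightest of the 3 pairs between libraries. In WT AntNPC the share was 6.19%, 7.65%, 7.58% and 8.23%, and with the EED-/- label 23.0%, 15.5%, 15.5% and 16.4%. The log2 ratio in AntNPC was higher by 1.40 in the EED-/- group (exact two-sided permutation p = 0.0286, 0.0429 adjusted), and by 1.14 with replicates 2 to 4 alone. From mESC to AntNPC it changed by -3.99 in WT and by -2.48 with the EED-/- label. The mESC groups of 2 cannot go below an exact p of 0.333, so no test was made there.

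Ldhb held 44.2% and 28.2% of the lactate dehydrogenase pair in WT mESC, 26.3% and 20.8% in EED-/- mESC, 18.0%, 10.1%, 10.3% and 10.4% in WT AntNPC, and 16.3%, 20%, 18.4% and 22.0% in EED-/- AntNPC. The AntNPC groups overlapped because WT replicate 1 lay above EED-/- replicate 1. The log2 ratio was higher by 0.81 with the EED-/- label (exact two-sided permutation p = 0.0571, 0.0571 adjusted), which did not pass. With replicates 2 to 4 alone it was 1.14.

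**Figure D4:**
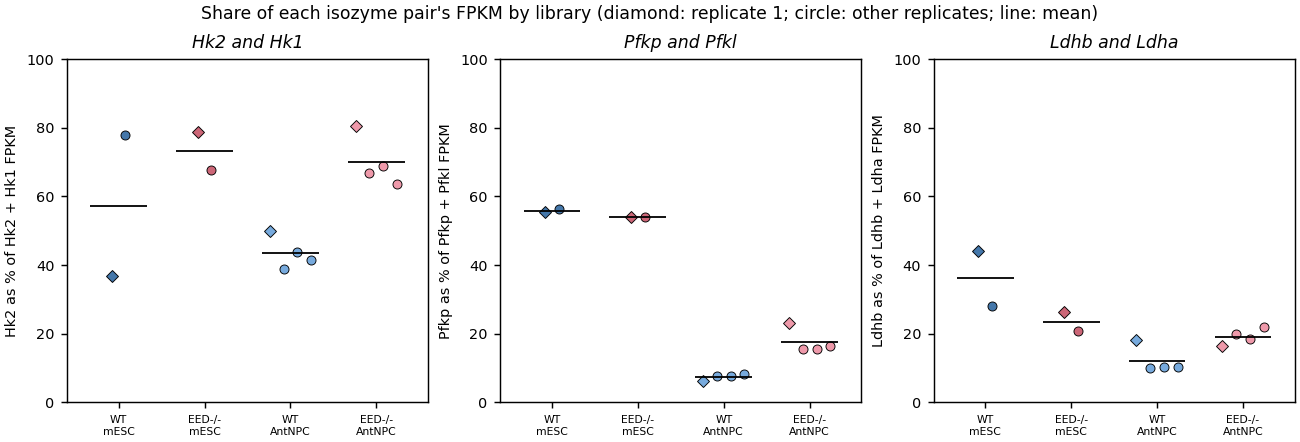
Share in percent (vertical axis, 0 to 100) that Hk2, Pfkp and Ldhb make up of their isozyme pair's FPKM in each library of the 4 groups, with diamonds for replicate 1, circles for the others and lines for means. The Hk2 and Pfkp shares of the 4 AntNPC libraries labelled EED-/- lie above those of WT, and Pfkp is between 53.9% and 56.3% in all 4 mESC libraries.

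In the authors' deposited table for AntNPC, the mean read count of Hk2 was 2447 for WT and 8585 for EED-/-, 3.51 times as high. Pfkp had a ratio of 2.17 in the authors' deposited table (p = 0.00686) and Ldhb 1.42 (p = 2.4e-05). Pfkl was lower in the authors' deposited table, with a ratio of 0.716 (p = 0.00556). The authors' deposited table thus has 3 members higher and 1 lower at a p under 0.05, and 52.2% of all its genes are under that p, whose adjustment is not stated.

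The 10 members did not move as 1 block across the 12 libraries. Pearson's r of log2(FPKM + 1) between members ran from 0.05 for Hk2 and Pfkl to 0.94 for Eno1 and Pkm, a description over libraries that share cell type, line and library kind. Among 9102 genes with a mean of at least 5 FPKM, the closest to Pfkp were Tdgf1 (r = 0.997), an epiblast and stem cell growth factor co-receptor, Aire (0.992) and Fgf4 (0.99), a stem cell growth factor. Closest to Ldhb were Ubald2 (0.989), Gemin2 (0.988), which takes part in snRNP assembly, and Dnajc21 (0.985). Hk2 was followed most closely by Tex40 (0.98), Mtus2 (0.979) and Serpinb6a (0.976), and Hk1 by Rabgef1 (0.982), Mtfr2 (0.976) and Gltp (0.973). For the abundant enzymes the top genes were Sod1, the cytosolic superoxide dismutase, for Aldoa (0.963), Gsta4, a glutathione transferase, for Eno1 (0.983), Grhpr for Ldha (0.955), Arl4a for Pkm (0.917), Riok3 for Pgk1 (0.889) and the pseudogene Pcna-ps2 for Pfkl (0.924).

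The genes around the 10 members were counted in 10 lists of 113 genes, of which 102 were tested. In AntNPC 22 rose and 3 fell with the EED-/- label, and in mESC 18 rose and 2 fell (limma). With differentiation 19 rose and 33 fell in WT, and 11 rose and 19 fell with the EED-/- label. For the interaction 2 passed on the higher side and 7 on the lower. Over all genes the shares that rose and fell were 18.3% and 7.75% in AntNPC, 20% and 2.73% in mESC, 30.1% and 18.1% in WT differentiation, 14.4% and 16.7% in EED-/- differentiation, and 3.98% and 11.3% for the interaction. The counts between the lines are near these shares, and the counts of the single lists below are read against them too.

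Of 14 tested other glycolytic genes, 3 rose in AntNPC labelled EED-/- (Pgam2, Bpgm and Adpgk) and 0 fell, with a median of 0.21 against 0.05 over all genes. Pgam2, the muscle phosphoglycerate mutase, rose from 0.484 ± 0.0428 to 3.78 ± 0.575 FPKM (SD, n = 4, limma adjusted p = 0.000223), and Bpgm, bisphosphoglycerate mutase, from 21 ± 0.948 to 28.0 ± 1.39 (0.0206). Bpgm lies on chromosome 6, and its 0.40 is below the shift of 0.63 of that chromosome. Gapdh, Gpi1, Tpi1 and Pgam1 did not pass there. The 0 FPKM listed for Gapdh in WT AntNPC replicate 1, against 1950 to 2131 in the other 3, entered its test and the median. Tpi1, triose phosphate isomerase, was 249, 349, 376 and 367 FPKM in WT AntNPC and 470, 442, 489 and 396 with the EED-/- label, and it lies on chromosome 6. In mESC 3 rose (Hkdc1, Bpgm and Adpgk). Hkdc1, a hexokinase-like gene, went from 0.229 ± 0.192 to 2.53 ± 0.41 FPKM (SD, n = 2, adjusted p = 2.91e-05). With WT differentiation 4 rose and 5 fell. Bpgm had the smallest adjusted p of those that rose, from 8.83 ± 1.68 to 21 ± 0.948 FPKM (SD, limma, 3.87e-05). Pgam2 had the smallest of those that fell, from 8.65 ± 0.965 to 0.484 ± 0.0428 FPKM (SD, limma, 1.53e-05). Eno3, the muscle enolase, rose from 12.3 ± 7.71 to 36.9 ± 7.58 FPKM. Ldhc, the testis lactate dehydrogenase, fell from 2.93 ± 0.0192 to 0.457 ± 0.15.

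Glucose and lactate carriers included 2 of 11 that rose in AntNPC and 0 that fell. Slc2a3, the high-affinity glucose transporter GLUT3, was 398, 340, 335 and 351 FPKM in WT and 647, 858, 725 and 734 with the EED-/- label, without overlap (1.05 ± 0.17, limma adjusted p = 0.000939). It lies on chromosome 6. Slc2a1, the widely expressed GLUT1, was 521, 243, 237 and 236 FPKM in WT and 321, 251, 232 and 223, and replicate 1 was the highest in each group. Slc16a1, the monocarboxylate carrier MCT1 that moves lactate, rose from 34.2 ± 10.9 to 85.4 ± 12.7 FPKM (SD, n = 4, 0.00476), and it lies on chromosome 3, which the set of reference autosomes leaves out. With WT differentiation Bsg, the chaperone of that carrier, fell from 441 ± 81.2 to 206 ± 25.9 FPKM (0.00657), as did Slc2a8 among the sugar carriers, and 4 rose.

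Genes that set the flow at phosphofructokinase and pyruvate changed in part. Of 10 regulators of phosphofructokinase and gluconeogenic genes, 3 rose in AntNPC labelled EED-/- and 1 fell. Pfkfb4, a bifunctional kinase and phosphatase that makes the phosphofructokinase activator, fell from 4.33 ± 1.07 to 2.10 ± 0.391 FPKM (SD, n = 4, limma adjusted p = 0.00737), while Pfkfb1, of the same family, rose from 9.37 ± 1.09 to 16.4 ± 1.98 (0.00973). In mESC Pfkfb4 instead rose with the EED-/- label, from 1.34 ± 0.24 to 2.95 ± 0.203 FPKM (SD, n = 2). Its interaction passed on the lower side (-1.53, limma adjusted p = 0.00703). Among 13 genes of pyruvate entry into mitochondria 2 rose and 1 fell in AntNPC labelled EED-/-. Pdk1, the kinase that switches off pyruvate dehydrogenase, rose from 11.3 ± 2.23 to 31.7 ± 19.5 FPKM (0.0144), the libraries labelled EED-/- running from 18.4 to 60.6, and Pdha1, a subunit of that enzyme, fell from 107 ± 4.19 to 78.1 ± 2.52 (0.00618). With WT differentiation Mpc1, a subunit of the mitochondrial pyruvate carrier, fell from 36.6 ± 0.72 (SD, n = 2) to 3.33 ± 0.517 FPKM (SD, n = 4, 8.88e-07), and with the EED-/- label it also fell (-2.75, 7.2e-06).

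In the branches, 3 of 5 genes of serine synthesis and use rose in AntNPC labelled EED-/-. Phgdh, which opens the serine branch from a glycolytic intermediate, rose from 77.7 ± 17.4 to 153 ± 14.2 FPKM (SD, n = 4, limma adjusted p = 0.00222), and lies on chromosome 3, and Psat1, the next enzyme, rose from 94.2 ± 22.2 to 167 ± 16.2 (0.00756). In mESC 0 of the 5 passed (limma). With WT differentiation 4 of the 5 fell, led by Shmt2, the mitochondrial serine hydroxymethyltransferase, from 130 ± 61.2 to 40.2 ± 0.163 FPKM. Of 8 pentose phosphate genes 1 rose in AntNPC, Rpia, the ribose phosphate isomerase on chromosome 6, from 3.75 ± 0.359 to 15.2 ± 2.30 FPKM.

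Genes of the HIF and MYC pathways, not all of them activators, and other hypoxia targets were counted likewise. Of 13 hypoxia targets outside glycolysis 4 rose in AntNPC labelled EED-/- (Kdm3a, P4ha2, Ankrd37 and Car9) and 0 fell, with a median of 0.88 against 0.05 over all genes. Ankrd37 lies on chromosome 8, which the set of reference autosomes leaves out and whose shift is not given here. Kdm3a, a histone demethylase on chromosome 6, rose from 17.0 ± 3.11 to 41.9 ± 2.87 FPKM (SD, n = 4, limma adjusted p = 0.000234), and P4ha2, a collagen hydroxylase, from 10.3 ± 0.833 to 22.7 ± 2.60 (0.00171). With WT differentiation 6 of the 13 fell and 0 rose. Of 10 HIF pathway genes 2 rose in AntNPC: Epas1, which encodes HIF-2α, from 0.212 ± 0.104 to 2.32 ± 0.385 FPKM, and Egln3, a HIF prolyl hydroxylase, from 3.81 ± 0.473 to 12.4 ± 5.77. The Egln3 libraries labelled EED-/- ran from 8.52 to 20.8 FPKM. Of 11 MYC and glucose-sensing factors 2 rose and 1 fell. Mlxipl, the glucose-responsive factor ChREBP, rose from 1.04 ± 0.21 to 7.09 ± 1.12 FPKM (0.003), and Mycl fell from 27.1 ± 3.76 to 10.8 ± 0.68 (0.000321). In mESC Mycl instead rose with the EED-/- label, from 3.21 ± 0.996 to 7.42 ± 2.43 FPKM (SD, n = 2). Its interaction passed on the lower side (-2.23, limma adjusted p = 0.000826). Hif1a, Arnt, Myc and Mycn did not pass between the lines in AntNPC or mESC (limma). The part of pluripotency, trophoblast, endoderm and mesoderm marker RNA in the AntNPC differences above, given with the samples, was not tested.

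**Figure D5:**
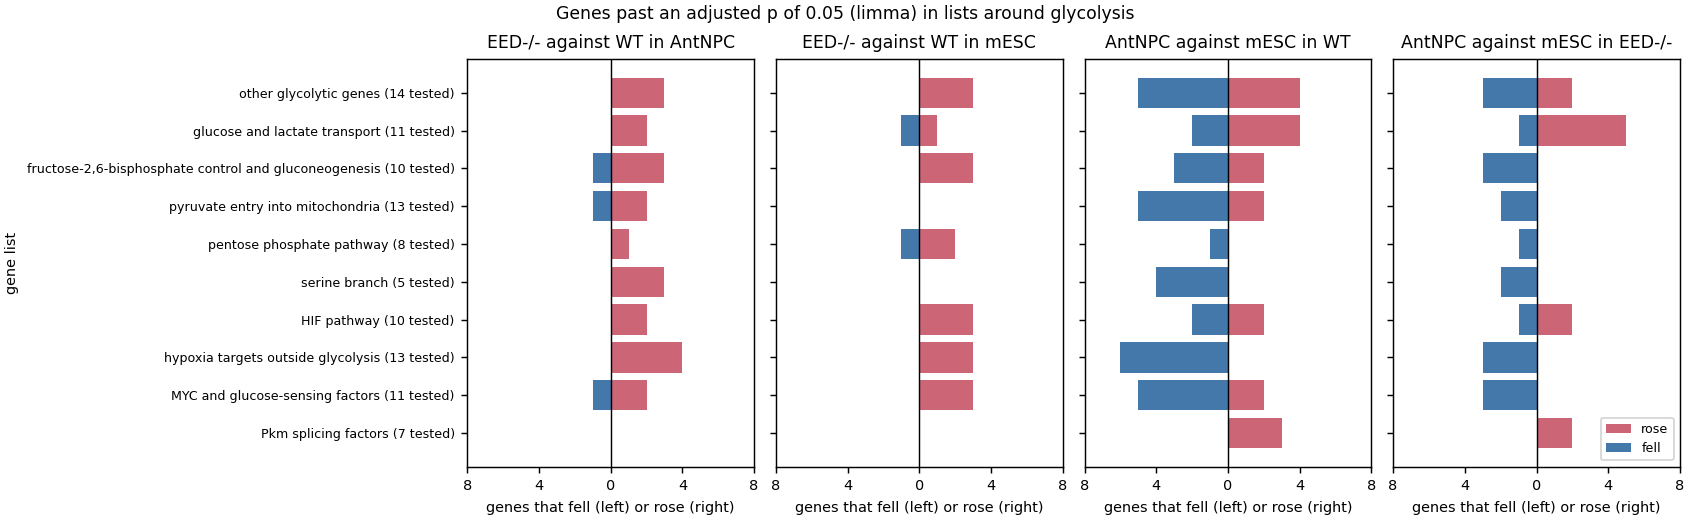
Number of genes (horizontal axis) in each of 10 lists around glycolysis that rose (right, red) or fell (left, blue) at an adjusted p under 0.05 (limma) in 4 comparisons, with the number tested beside each list. In AntNPC 22 of the 102 tested rose and 3 fell, and in WT differentiation 19 rose and 33 fell.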

How the data were processed

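Polyadenylated RNA was measured in 12 libraries of 4 groups. The authors deposited 1 table of 21253 genes with FPKM per library and per group, made with TopHat2 on GRCm38 (mm10) and Cufflinks, per the submitters' processing notes. FastQC and SAMtools are also listed there. The unit was read from those notes and the values, since the header does not name it. For AntNPC the authors deposited mean read counts by group, treated here as a signal because they are not whole numbers, and a p-value. Per the submitters' processing notes, the authors also used DESeq2 for 8 of the 12 libraries. Versions, annotation and strand setting: not given in the sources used here. Depth is unknown, so no counting interval is given. Columns were matched by name, no per-sample column was left out (0 unused), and the library without a number was taken as replicate 1. Nothing says that replicates were separate cultures, and p-values then measure only spread that may be technical.

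Changes are on the scale log2(FPKM + 1), so those of low genes are understated. Genes that reached 1 FPKM in 2 or more libraries, 13678 in all, entered limma-trend (limma 3.58.1 under R 4.3.3). A single fit of the 4 group means used the 12 libraries and had 8 residual and 2.93 prior degrees of freedom. Tests were two-sided, p-values were Benjamini-Hochberg adjusted for each of 5 comparisons, and the threshold was 0.05. "Rose" and "fell" mean an adjusted p under it. The AntNPC libraries thus contribute to the spread used for the mESC groups of 2. Isozyme ratios were tested by exact permutation (scipy 1.17.1), adjusted over 3. The limma fit was tested on simulated data for the comparison of the lines in AntNPC only, with changes planted in the EED-/- AntNPC libraries. The simulation held no library kinds, and the other comparisons and the permutation test were not covered. Positions are from GENCODE M21, which matched 21149 genes, and upstream sequences from RefSeq.

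The members and lists were chosen with earlier results of these data known. The rule named all members and the 3 genes most like a member, of which 1 is given for 6 members. From each list it took, by smallest adjusted p, up to 2 genes per direction in AntNPC and in WT differentiation. In the other comparisons it took up to 1. Only part of these list genes is described, and that part was chosen outside the rule. The rest, among them Pck2, Pdp2, Slc2a6, Slc2a12 and Emb, stand only in the counts. A gene described is therefore not always the one with the smallest adjusted p. Slc2a1, Tpi1, Gapdh, Gpi1, Pgam1, Hif1a, Arnt, Myc, Mycn and the processed copies were named after their values were seen. Same-numbered AntNPC libraries deviated together (r = 0.562, 0.318, 0.422 and 0.332), but only 4 of 8 correlated best with their own number. Replicate 1 stood apart in both AntNPC groups, so these r do not show that the numbers pair the libraries. Both same-numbered mESC pairs had r = -0.67, which in groups of 2 is necessarily the same value. Alternatives were other pseudocounts, filters and scalings, a replicate block, subsets of libraries, each library left out in turn and, chosen after seeing the data, 3 fits for the library kinds.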

Additional observations from a re-analysis of the deposited data

Results flagged for a closer look

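In 5 of 26 groups of 4 libraries 1 library lay further from the rest than Dixon's critical value allows. In all 5 it was replicate 1 of an AntNPC group. Chance gives about 1 in 20 for separate groups. The groups here share the same AntNPC libraries, and the shares reuse the members' FPKM, so the 5 are not separate events. Pfkp was at 36.0 FPKM in EED-/- AntNPC replicate 1, its gap being 0.925 of the group's range. Its share of the phosphofructokinase pair in that library was 23.0% (0.88). Aldoa was at 471 FPKM (0.867) and Pkm at 691 FPKM (0.886) in WT AntNPC replicate 1, both the lowest of their groups. The Ldhb share of the lactate dehydrogenase pair was 18.0% (0.959) in the same WT library, the highest of its group. Pgk1-rs7 was above 30 FPKM in these 2 libraries and under 4 in the other 6 AntNPC libraries, and its part in these values was not tested.

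The change of Ldhb with differentiation differed between the lines by 1.63 on the log2 scale (limma interaction, SE 0.36, adjusted p = 0.0119), with a smaller drop in the cells labelled EED-/-. The same direction was seen without any 1 of the 12 libraries, with values from 1.09 to 2.17.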

How the results depend on the processing

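Of 1030 values of single members under the alternatives, 943 kept direction and side of the threshold, 33 lost it, 34 gained it and 20 changed sign. The cause was not tested.

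With a replicate block the members higher in AntNPC went from 3 to 1 (Hk2), those lower in mESC from 1 to 0, and genes to 697 lower in AntNPC, 1735 higher and 190 lower in mESC, 938 higher and 1383 lower for EED-/- differentiation, and 275 and 776 for the interaction. The block left the isozyme ratios at 1.63, 1.40 and 0.81, where 4 pairs cannot go below an exact p of 0.125. Pairing mESC numbers crosswise, chosen after seeing the data, gave 0 members lower in mESC. AntNPC alone gave 4323 genes higher and 2800 lower, and with the block, added later, 4549 and 3051, with 1 member lower (Pfkl). With AntNPC replicates 2 to 4 and all mESC libraries, 2 members were lower in AntNPC (Pfkl and Pgk1), 2 were higher for the interaction, and Pkm there was -0.0091. The 4 mESC libraries alone gave 0 members and 0 genes in either direction (limma, 1703 at an unadjusted p under 0.05). The term for high Pgk1-rs7, added later, gave 2 members lower in mESC, 8 in WT differentiation, 560 genes lower in mESC and 3147 higher for EED-/- differentiation.

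Quantile normalization gave 1945 genes lower in AntNPC, 1216 higher and 1113 lower in mESC and 841 lower for the interaction, and changed Ldha to 0.057 in AntNPC and 0.23 in mESC, Pfkl to 0.083 in WT differentiation and Eno1 to 0.24 in EED-/- differentiation. FPKM scaled to equal sums gave 698 genes lower in AntNPC, 175 lower in mESC, 328 higher and 828 lower for the interaction and 2 members lower in mESC, with Pfkl at 0.10 and Eno1 at 0.15.

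Leaving out each library in turn gave ranges. In AntNPC they were 1 to 3 members higher, 0 to 2 lower and 768 to 1669 genes lower. In mESC they were 0 to 1 members higher, 0 to 2 lower and 282 to 1366 genes lower, with Hk1 from -0.83 to 0.61 and Ldha from -0.75 to 0.48. For differentiation 4 to 8 members were lower in WT and 2 to 5 with the EED-/- label, where 941 to 3119 genes were higher and Eno1 ran from -0.31 to 0.074. For the interaction they were 1 to 2 members and 376 to 1558 genes higher and 1114 to 2733 genes lower, with Hk1 from -0.39 to 1.06, Pkm from -0.23 to 0.58 and Ldha from -0.65 to 0.58. Where a group was left with 1 library, that library was assumed to vary like the other groups. The mESC groups of 2 limit precision.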
